A study of Mus musculus with 4 samples.

Results

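Mitosis and spindle checkpoint genes were followed on 4 mouse arrays of bone marrow cells: 36 genes of the 29173 named genes on the array. The set was taken by gene name and holds mitotic kinases, entry regulators, checkpoint proteins, centromere and chromosome proteins, spindle proteins and cytokinesis proteins, without kinesin-named genes and cyclins. It is covered by 61 probes; 20 of the genes have several probes and 16 have 1. All 36 genes and all 61 probes were well above background on all 4 arrays, and none was saturated.

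The series measured gene expression in 2 sorted bone marrow populations of C57BL6/J mice aged 7 weeks, and its labels ask how the marrow niche looks while transplanted stem cells are multiplying. LSK cells lack lineage markers and carry Sca-1 and c-kit, a gate that holds blood stem cells and early progenitors. The CD45-negative cells were sorted as stromal or niche cells. In the day 10 groups (LSK day 10 and CD45-negative day 10) mice had received 700 cGy of radiation and then 30000 LSK cells from CD45.2 donors, with CD45.1 recipients; in the day 0 groups (LSK day 0 and CD45-negative day 0) the mice were healthy. The labels call the stromal sort CD45.1-negative in one field and CD45-negative in others, so the antibody is not certain, and the sex of the mice and any pooling of animals are not stated. Each group has 1 array, so no difference has a replicate spread, an error or a test. With so few arrays, every value below has limited precision.

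Mitosis is the stage at which a cell condenses its copied chromosomes, attaches them to the spindle at their centromeres, waits at the spindle checkpoint until all are attached, and then destroys securin and cyclin B through the anaphase-promoting complex so that the sister chromosomes part. Cytokinesis then divides the cell. Most genes of this programme are transcribed in the late cell cycle, under MuvB complexes, B-Myb and Foxm1, through the cell cycle genes homology region and CCAAT boxes bound by NF-Y. In marrow, dividing red cell and white cell precursors carry much of this RNA, while resting stem cells carry little.

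Promoter sequence is shown first, because it lets the genes be compared without the array values. RefSeq windows of the GRCm38.p6 build, running from 250 bases before to 50 bases after the annotated start, were available for 30 of the 36 genes. The homology region, searched as TTTGAA with its reverse complement TTCAAA, was found in 22 of the 30 (73.3%), against 20.2% of 27025 genes in the same table. The NF-Y box, searched as CCAAT with its reverse complement ATTGG, was found in 24 (80.0%), against 41.1%. Both motifs stood together in 20 (66.7%), against 7.97%, and 16 (53.3%) held at least 2 NF-Y boxes, against 13.3%. All shares are over genes, and a gene with several windows counts as holding a motif if any window does. Matches of the 2 motifs can share bases, which among these genes happened in Cdca8 alone, by 1 base. A match is a description of the letters and not a bound site.

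The 6 stretches of 120 bases that follow are each written 5′ to 3′ on the gene's strand, with both motifs in capitals. Ube2c (chr2:164769809-164769928, plus strand), Top2a (chr11:99024190-99024309, minus strand), Cdc20 (chr4:118437344-118437463, minus strand) and Mki67 (chr7:135716460-135716579, minus strand) were chosen because each holds a homology region downstream of at least 1 NF-Y box. Bub3 (chr7:131560250-131560369, plus strand) was chosen as the gene that differed least between days in CD45-negative cells. Birc5 (chr11:117849117-117849236, plus strand) was chosen as a gene with no exact match to either motif in its window.
Ube2c: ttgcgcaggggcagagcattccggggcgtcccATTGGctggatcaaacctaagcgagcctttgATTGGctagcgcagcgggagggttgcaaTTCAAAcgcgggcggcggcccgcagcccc
Top2a: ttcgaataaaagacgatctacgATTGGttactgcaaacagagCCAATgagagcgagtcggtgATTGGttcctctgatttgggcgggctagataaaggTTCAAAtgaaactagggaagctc
Cdc20: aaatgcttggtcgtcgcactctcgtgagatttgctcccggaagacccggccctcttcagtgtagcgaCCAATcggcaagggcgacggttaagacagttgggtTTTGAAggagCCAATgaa
Mki67: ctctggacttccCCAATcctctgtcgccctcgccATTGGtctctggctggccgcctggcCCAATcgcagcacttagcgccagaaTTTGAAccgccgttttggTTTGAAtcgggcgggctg
Bub3: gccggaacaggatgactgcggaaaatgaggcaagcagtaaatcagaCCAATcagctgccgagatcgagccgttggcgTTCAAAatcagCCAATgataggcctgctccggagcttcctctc
Birc5: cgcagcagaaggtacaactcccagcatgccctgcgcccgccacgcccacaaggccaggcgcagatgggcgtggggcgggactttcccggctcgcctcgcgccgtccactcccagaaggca

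Of the 27 copies of the homology region in these windows, 22 began within 50 bases of the annotated start, and 45 of the 56 NF-Y boxes began in the 150 bases before it. In Mki67 both homology regions lay farther upstream, just after its NF-Y boxes. The only homology region of Ckap2 began at -101, upstream of its NF-Y box at -20. Top2a and Ect2 each held a distant copy beside a nearer one. Birc5, Mad2l1, Melk and Nusap1 held no exact match to either motif in their windows.

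**Figure D1:**
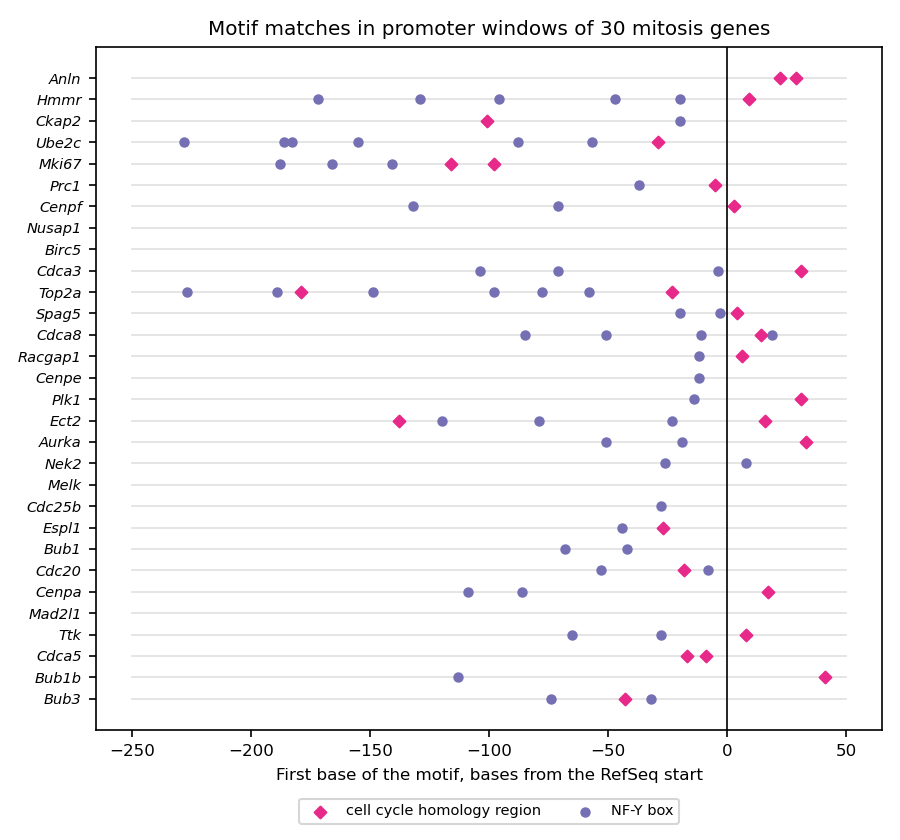
Position of each motif match in the promoter windows of 30 mitosis genes, in bases from the RefSeq start (x axis), with 1 line per gene ordered by its CD45-negative difference between days, the most negative at the top. Diamonds are homology regions and circles are NF-Y boxes; 22 of 27 diamonds lie within 50 bases of the start, and circles lie mostly upstream of it.

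Levels are given below as log2 of the processed spot signal minus the 75th percentile of the same array, so a level of 0 equals that percentile, and each gene is read from its brightest probe. A difference of at least 2-fold (1 on the log2 scale) is counted as a size, not as a test. On each array 47.6% to 56.6% of the 61307 probes passed the background flag, and replicate spots of a probe had an SD of 0.087 to 0.107 within an array. The sorts were checked against marker genes. Kit stood at 4.65 in LSK cells at day 10 and 5.04 at day 0, against 1.94 in CD45-negative cells at day 10 and 1.52 at day 0. Ly6a, the gene of Sca-1, did not separate the sorts at day 10: it stood at 2.86 in LSK cells at day 10 and 2.98 at day 0, against 3.44 in CD45-negative cells at day 10 and 0.20 at day 0. Ptprc, the gene of CD45, stood at 4.25 in LSK cells at day 10 and 4.18 at day 0, against 5.58 in CD45-negative cells at day 10 and 3.10 at day 0. It was thus above background in the CD45-negative sort at both days and higher there than in LSK cells at day 10. On this marker that sort goes against its label. All 10 genes of an LSK marker list were above background in LSK cells at both days, against 7 of them in CD45-negative cells at day 10 and 5 at day 0. The stromal list was mixed. Col1a1, a collagen gene, stood at -2.53 in LSK cells at day 10 and -2.47 at day 0, against 1.88 in CD45-negative cells at day 10 and 5.32 at day 0. Pdgfrb, a receptor of perivascular cells, was instead higher in LSK cells, by 4.95 at day 10 and 2.41 at day 0. At day 0, 3 of the 10 stromal genes measured in both sorts were higher in LSK cells.

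Across the 4 arrays the mitosis genes had a single common feature at their brightest probes. CD45-negative cells at day 0 gave the highest level of all 36 genes, against 31.1% of the 14101 genes measured on all arrays. A second Bub3 probe was instead higher in LSK cells at day 0 (2.44 against 2.13), as was 1 Tpx2 probe (-1.08 against -1.63). Under normexp background correction Cdca5 and Bub1b were not highest in CD45-negative cells at day 0. The lowest level lay in LSK cells at day 0 for 19 genes (18.0% of all genes), in LSK cells at day 10 for 11 (17.1%), and in CD45-negative cells at day 10 for 6 (23.0%). The most frequent order, in 13 genes, was CD45-negative day 0, CD45-negative day 10, LSK day 10 and LSK day 0 from high to low. These orders hold on the percentile scale. The labels do not state that a spike mix was added or in what amount, but 5 spike-in control probes gave unsaturated signals above background on all arrays. A scale taken from them is used below as an alternative whose meaning rests on that unstated step. It adds 3.25 to every day difference in CD45-negative cells and puts 35 of the 36 genes higher at day 10 there. The median difference of all genes is 3.44 on that scale, so a higher level at day 10 is not particular to the mitosis genes. No share of all genes is given for counts on that scale.

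**Figure D2:**
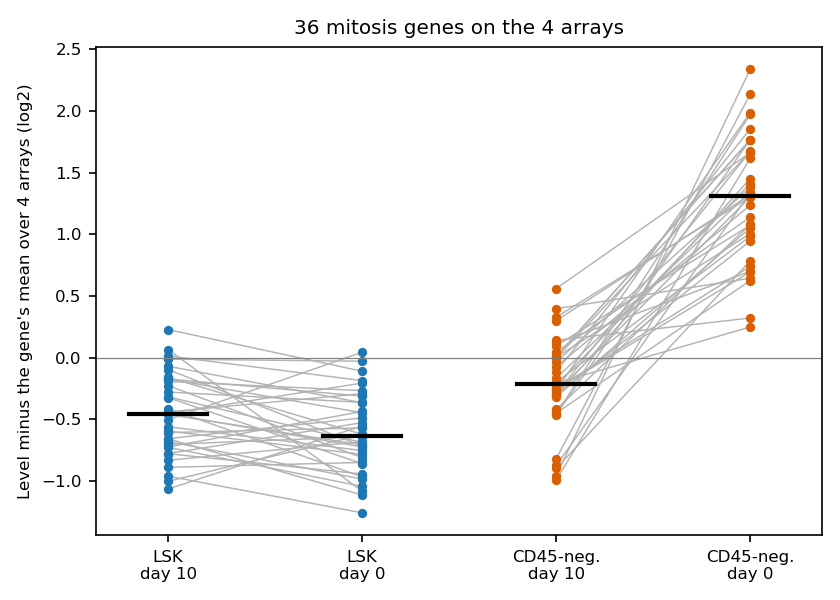
Level of each of the 36 mitosis genes on each array, as the difference from that gene's mean over the 4 arrays (log2, y axis), with a line joining each gene within a population and a bar at the median. At their brightest probes all 36 genes are highest in CD45-negative cells at day 0 on the percentile scale. By the spike-in probes 35 of 36 are instead higher at day 10 in CD45-negative cells, where the all-gene median difference is 3.44.

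The first comparison asks how the mitosis genes of LSK cells from transplanted mice stand against those of healthy mice. They were nearly level. The median difference, day 10 minus day 0, was 0.19, against -0.01 over all 16306 genes measured on both arrays. Of the 36 genes, 24 were above 0 and 12 below, against 49.3% and 50.7% of all genes, and 29 differed by no more than 0.5 either way, against 82.0%. Racgap1 was at least 2-fold higher at day 10 and no gene was at least 2-fold lower, against 1.44% and 2.68% of all measured genes.

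Among the mitotic kinases, Plk1, which drives centrosome maturation and entry into mitosis, stood at 4.74 in LSK cells at day 10 and 4.99 at day 0. Aurka, the centrosome and spindle kinase, stood at 4.25 at day 10 and 4.40 at day 0. Melk, a kinase made in dividing cells, stood at 1.35 at day 10 and 0.89 at day 0. The kinases thus lay on both sides of 0, with differences from -0.29 (Nek2) to 0.46 (Melk).

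Of the 5 checkpoint genes 4 were above 0 in LSK cells. Ttk, the kinase that starts the checkpoint signal, stood at -2.96 at day 10 and -3.58 at day 0, a difference of 0.62. Bub1b, which holds back the activator Cdc20, stood at 1.14 at day 10 and 0.56 at day 0, a difference of 0.58. Mad2l1, its partner in the inhibitory complex, went the other way by -0.38. Bub1 differed by 0.37 and Bub3, the adaptor that brings both Bub kinases to the kinetochore, by 0.07.

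Cytokinesis, entry and cohesion genes lay on both sides of 0 in LSK cells. Cdc25c, a phosphatase that activates Cdk1, stood at -1.08 at day 10 and -0.53 at day 0, a difference of -0.55, while its other probe gave 0.31. Espl1, the separase that cuts cohesin, differed by -0.51. Anln, the actin-binding anillin of the cleavage furrow, stood at -0.02 at day 10 and -0.57 at day 0, a difference of 0.55, against 0.08 at its other probe. Racgap1, a subunit of the centralspindlin complex, stood at 0.45 at day 10 and -0.70 at day 0, a 2.22-fold difference and the widest of the set. Its other probe had -0.23 at day 10 and 0.05 at day 0, so the probes of Racgap1 gave opposite signs. In LSK cells the probes of 9 of the 20 genes with several probes disagreed in sign, with a median range of 0.34 between probes of a gene.

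Chromosome, passenger complex and spindle genes differed by less than 2-fold in LSK cells. Mki67, which coats mitotic chromosomes and is a common marker of dividing cells, differed by 0.16. Top2a, which untangles sister chromosomes, differed by 0.34. Birc5, the survivin subunit of the chromosomal passenger complex, differed by -0.17, while its partners Cdca8, Aurkb and Incenp differed by 0.54, 0.27 and 0.08. At their brightest probes the 5 spindle assembly genes were above 0, from 0.19 (Tpx2) to 0.46 (Nusap1), but other probes of Tpx2, Ckap2 and Spag5 were below 0, down to -0.62 for Ckap2. The spike-in scale adds -0.19 to every LSK difference, so that the median is 0.002 and 19 of the 36 genes are above 0. The median of all genes is -0.20 there.

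The second comparison asks the same of the CD45-negative cells. On the percentile scale all 36 genes were lower at day 10, whereas on the spike-in scale 35 of 36 were higher. The median difference was -1.46, against 0.19 over all 14421 genes measured on both arrays. No gene was at least 2-fold higher and 28 were at least 2-fold lower, against 23.6% and 17.9% of all genes. A share of 43.6% of all genes was below 0. On the spike-in scale the median of the mitosis genes was 1.79 and that of all genes 3.44. That scale adds the same constant to both, so the gap between them is unchanged by construction. In bulk RNA, fewer cells of a type and less RNA per cell cannot be told apart.

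**Figure D3:**
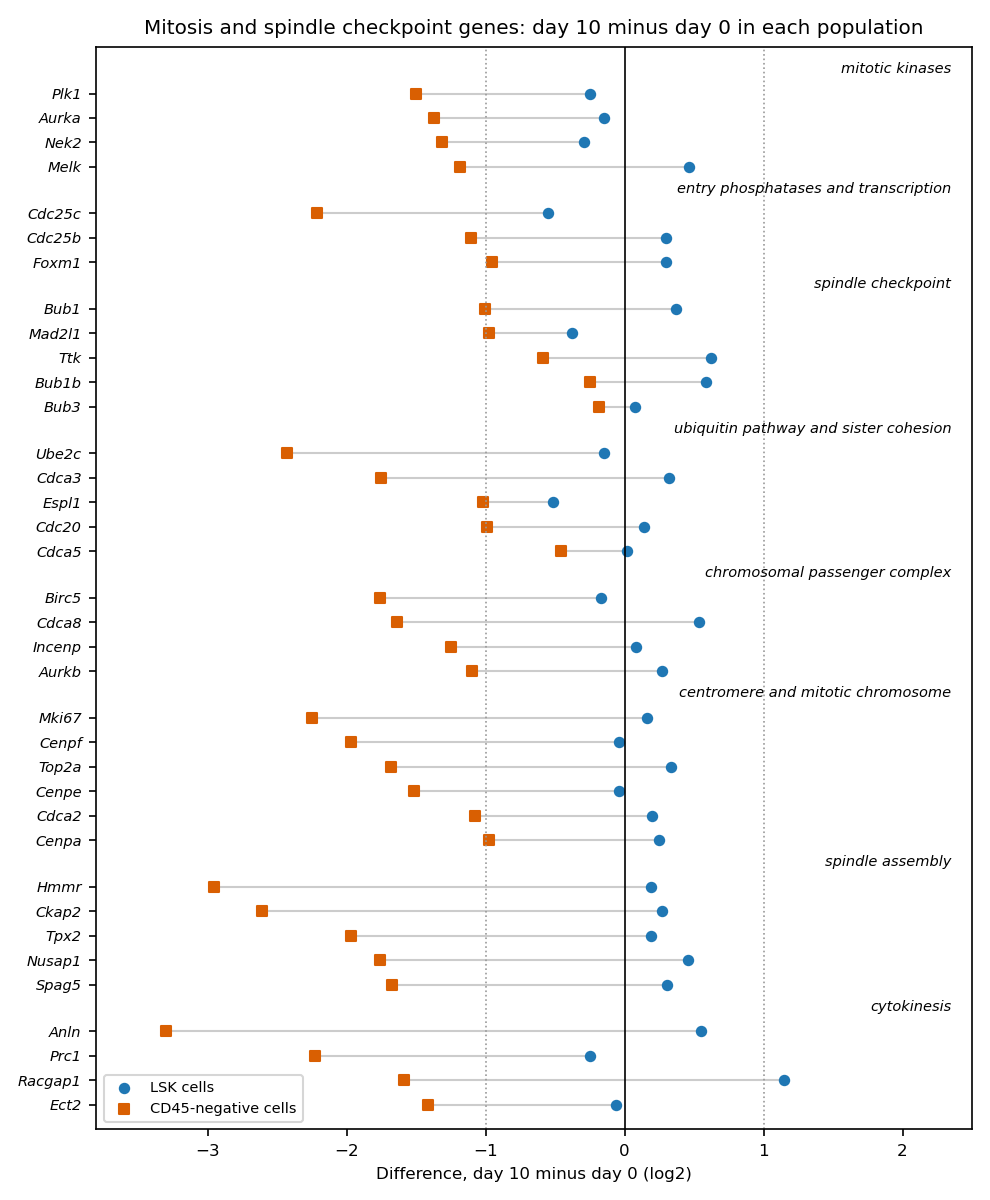
Difference in level, day 10 minus day 0 (log2, x axis), of each of the 36 mitosis genes in LSK cells (circles) and CD45-negative cells (squares), grouped by role; dotted lines mark 2-fold. LSK differences run from -0.55 to 1.15 and CD45-negative differences from -3.30 to -0.18 on the percentile scale. The spike-in probes would move every square to the right by 3.25, turn 35 of the 36 positive and put the all-gene median at 3.44.

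Cytokinesis genes had a median of -1.91 in CD45-negative cells, with all 4 at least 2-fold lower on the percentile scale. Anln stood at -0.56 at day 10 and 2.74 at day 0, a difference of -3.30, the widest of the set and the only one below 0 on the spike-in scale (-0.04). Its other probe gave -3.45. Prc1, which bundles the microtubules of the spindle midzone, stood at 4.63 at day 10 and 6.86 at day 0, a difference of -2.23. Racgap1 differed by -1.59 and Ect2, the exchange factor that activates RhoA at the furrow, by -1.42.

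Spindle assembly genes had a median of -1.97, again with all 5 at least 2-fold lower at their brightest probes on the percentile scale. Hmmr, a microtubule-binding protein of the spindle poles, stood at 1.49 at day 10 and 4.44 at day 0, a difference of -2.96. Ckap2, another spindle microtubule protein, stood at -1.15 at day 10 and 1.46 at day 0, a difference of -2.61. Tpx2, the activator of Aurka on the spindle, differed by -1.97, Nusap1 by -1.76 and Spag5 by -1.67. The probes of Hmmr, Ckap2, Tpx2, Cenpe and Ect2 lay more than 1 apart in this difference, and a second Hmmr probe gave -1.86. The other Tpx2 probes gave -0.50, -0.90, -0.99 and -1.14, so most of them missed the 2-fold limit. No gene had probes of opposite sign, and all 61 probes were below 0.

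Centromere and chromosome genes had a median of -1.60. Mki67 stood at 6.70 in CD45-negative cells at day 10, against 8.96 at day 0. It was therefore 4.76-fold lower on the percentile scale and higher by 1.002 in log2 on the spike-in scale. Cenpf, a large protein of the outer kinetochore, stood at 3.84 at day 10 and 5.81 at day 0. Top2a stood at 2.83 at day 10 and 4.51 at day 0. Cenpe, the kinetochore motor, differed by -1.51. Cdca2, which targets a phosphatase to anaphase chromosomes, differed by -1.08, and the centromeric histone Cenpa by -0.98.

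The passenger complex genes were close in size, with differences of -1.76 for Birc5, -1.64 for the borealin gene Cdca8, -1.25 for the scaffold Incenp and -1.10 for the kinase Aurkb. Birc5 stood at 6.54 at day 10 and 8.30 at day 0. The kinases Plk1 (-1.501), Aurka (-1.37), Nek2 (-1.31) and Melk (-1.18) filled a narrow range as well. Among the entry regulators Cdc25c differed by -2.21, Cdc25b by -1.10 and Foxm1, the transcription factor of late cell cycle genes, by -0.95.

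The ubiquitin and cohesion genes were spread most widely. Ube2c, the ubiquitin-conjugating enzyme of the anaphase-promoting complex, stood at 4.04 in CD45-negative cells at day 10 and 6.47 at day 0, a difference of -2.43. Cdc20, which activates the same complex, stood at 5.13 at day 10 and 6.12 at day 0, a difference of -0.99. Cdca3, an adaptor in the degradation of the Wee1 kinase, differed by -1.75, Espl1 by -1.02, and Cdca5, the sororin that protects cohesin, by -0.45.

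The checkpoint genes had the median nearest to 0 of any role, -0.58. On the percentile scale 1 of 5 was at least 2-fold lower, a share near the 17.9% of all genes. Bub3 stood at 4.38 at day 10 and 4.56 at day 0, a difference of -0.18. Bub1b stood at 1.77 at day 10 and 2.02 at day 0, a difference of -0.25, which was 0.05 under normexp background correction. Ttk stood at -2.75 at day 10 and -2.16 at day 0, a difference of -0.58. Bub1 (-1.004) lay just inside the 2-fold limit, with Cdc20 (-0.99), Cenpa (-0.98) and Mad2l1 (-0.97) just outside it. The other Bub1 probe gave -0.60, outside that limit.

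The 8 genes that were not 2-fold lower were Bub1b, Bub3, Mad2l1, Ttk, Cdc20, Cdca5, Cenpa and Foxm1; 4 of them belong to the checkpoint group. At the other end, 7 of the 36 genes were at least 4-fold lower on the percentile scale, against 7.11% of all genes: Anln, Hmmr, Ckap2, Ube2c, Mki67, Prc1 and Cdc25c. In 25 genes every probe was at least 2-fold lower. This count includes genes with no other probe than the brightest, for which the rule adds nothing. No share of all genes is given for this rule, so the count has no background to be read against.

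**Figure D4:**
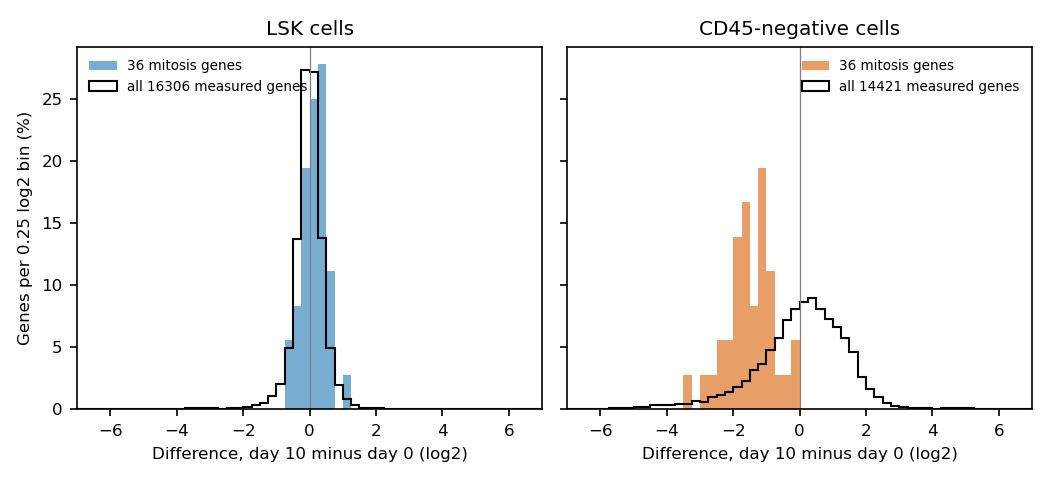
Share of genes (%, y axis) in each 0.25-wide bin of the difference, day 10 minus day 0 (log2, x axis), for the 36 mitosis genes (filled) and all measured genes (outline), in LSK cells on the left and CD45-negative cells on the right. The medians are 0.19 for the mitosis genes and -0.01 for all genes in LSK cells, and -1.46 and 0.19 in CD45-negative cells, where the spike-in probes would shift both distributions to the right by 3.25.

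The 22 genes holding the homology region had a CD45-negative median of -1.61 on the percentile scale, with 16 at least 2-fold lower and a range of -3.30 to -0.18. The 8 genes with a window that lacks it had a median of -1.25, with 7 at least 2-fold lower and a range of -1.76 to -0.97. Both the widest and the narrowest differences thus lay among genes that hold it. These values are a description and were not tested.

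Other cell cycle genes were read from lists that share no gene with the 36. Their counts are to be read against the 17.9% of all genes that were at least 2-fold lower and the 23.6% that were higher. In CD45-negative cells, 24 of 35 other kinetochore and centromere genes were at least 2-fold lower on the percentile scale, with a median of -1.29, which is 1.96 on the spike-in scale. Knl1, the scaffold that recruits Bub proteins, stood at 2.49 at day 10 and 4.77 at day 0, and Oip5, a centromere loading factor, differed by -2.15. Of the condensin and cohesin genes 9 of 19 were lower (median -0.92), led by the cohesin release factor Wapl (-3.53) and the condensin subunit Ncapg2 (-2.21). Of the other spindle and cytokinesis genes 11 of 26 were lower and 1 higher (median -0.74), led by the spindle pole protein Aspm (-2.96) and the citron kinase Cit (-2.59).

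The other lists had medians from -0.78 to -0.11. DNA replication genes had a median of -0.78, with 10 of 29 at least 2-fold lower on the percentile scale, among them Tk1, a thymidine kinase (-2.21), and the origin recognition subunit Orc1 (-2.03). Other entry and exit regulators had a median of -0.65, with 5 of 16 lower and 1 higher; the centriole kinase Plk4 differed by -2.09, Nek6, a mitotic kinase, by 2.01 and Cdk1, the central mitotic kinase, by -1.69. Regulators of cell cycle transcription had a median of -0.53, with 8 of 21 lower, including E2f4 (-2.61). The anaphase-promoting complex and its regulators had a median of -0.11, with 3 of 18 lower, a share near that of all genes. These were Fzr1, another activator of the complex (-3.19), and the regulators Ube2s (-1.71) and Fbxo5 (-1.25). On the spike-in scale the medians of all 7 lists were above 0, from 1.96 for the kinetochore list to 3.14 for the anaphase-promoting complex. In LSK cells none of these 7 lists had a gene at least 2-fold higher or lower, and their medians lay between -0.06 and 0.13.

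Red cell genes were also lower at day 10 in the CD45-negative sort. The median difference of the red cell genes was -4.30, and each of the 13 measured was more than 2-fold lower on the percentile scale. Their summed linear level was 320.9 at day 10 and 2521 at day 0 in CD45-negative cells. On the spike-in scale their median was -1.05. In LSK cells the sum was 15.8 at day 10 and 25.8 at day 0, and the red cell membrane gene Epb42 was not above background on either LSK array. Alas2, the first enzyme of heme synthesis in red cells, stood at 3.53 in CD45-negative cells at day 10 and 9.04 at day 0. All 13 red cell genes were above background in CD45-negative cells at both days.

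The other marker lists changed as well. Of the T and NK cell genes, 11 of 12 were above background in CD45-negative cells at day 10 and 7 of 12 at day 0; the 7 measured at both days were all at least 2-fold higher at day 10 (median 3.51), and the summed level was 190.2 at day 10 and 7.83 at day 0. Of the stromal list, 10 of 12 genes were above background at day 10 and 12 of 12 at day 0, with a summed level of 15.99 at day 10 and 145.4 at day 0. Of the 10 measured at both days 7 were at least 2-fold lower and 2 higher on the percentile scale, and the leptin receptor gene Lepr and the collagen gene Col3a1 were not above background at day 10. B and plasma cell genes had a median of 1.91, with 8 of 9 higher and a summed level of 460.9 at day 10 and 126.6 at day 0. Neutrophil genes had a median of 1.47, with 6 of 10 higher and 1 lower, while their summed level was 838.3 at day 10 and 1145 at day 0. The part of these cells in the lower mitosis values was not tested.

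**Figure D5:**
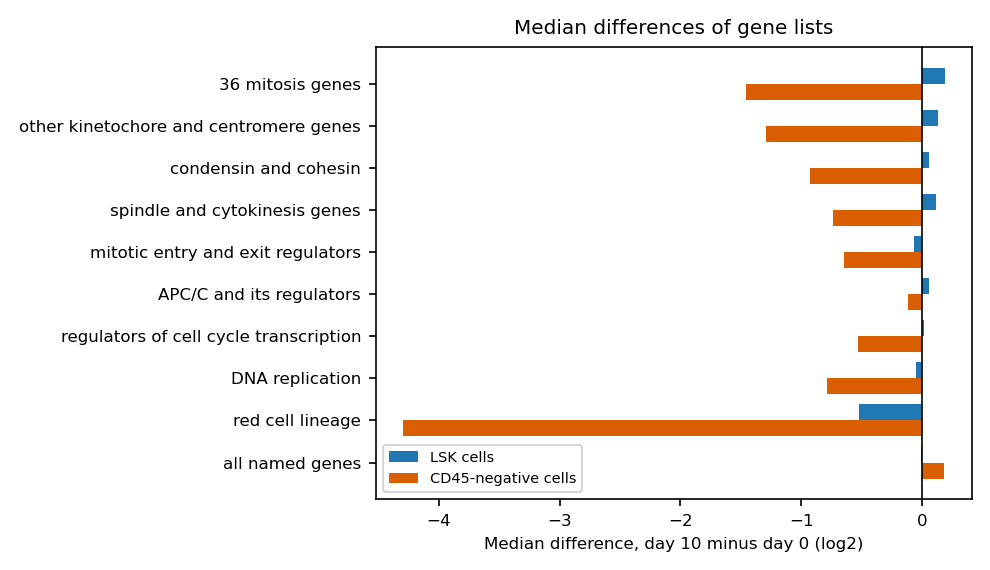
Median difference, day 10 minus day 0 (log2, x axis), of the 36 mitosis genes, of 7 other cell cycle lists, of red cell genes and of all named genes, in LSK cells and CD45-negative cells. The CD45-negative medians run from -4.30 for red cell genes and -1.46 for the mitosis genes to -0.11 for the anaphase-promoting complex; the spike-in probes would move them by 3.25 and leave the red cell median alone negative at -1.05.

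Between populations, the mitosis genes of LSK cells were lower than those of CD45-negative cells at day 0 for all 36 genes on the percentile scale, and for 21 of 36 on the spike-in scale. Of all genes, 52.9% were above 0 and 47.1% below on the percentile scale, and the all-gene median on the spike-in scale was 1.83. The median difference, LSK minus CD45-negative, was -1.90 at day 0, against 0.08 over all 14463 genes. No gene was at least 2-fold higher in LSK cells and 32 were at least 2-fold lower, against 21.8% and 17.7% of all genes. At day 0 the probes of Bub3 and Tpx2 gave opposite signs (0.31 at the second Bub3 probe, 0.55 at one Tpx2 probe), and those of Cdc25c, Racgap1 and Tpx2 lay more than 1 apart. Anln differed by -3.31, Mki67 by -2.93 and Cdc25b by -2.92. Mki67 stood at 6.02 in LSK cells and 8.96 in CD45-negative cells at day 0. The smallest differences were those of Cdca5 (-0.28) and Bub3 (-0.59), and Cdca5 stood at 0.14 under normexp correction. At day 0 the red cell list summed to 25.8 in LSK cells and 2521 in CD45-negative cells; its part in this difference was not tested.

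At day 10 the populations were closer. The median difference, LSK minus CD45-negative, was -0.32, against 0.01 over all 15742 genes, with 12 genes above 0 and 24 below (50.3% and 49.7% of all genes). Top2a was at least 2-fold higher in LSK cells, and Cdc25b (-1.52), Espl1 (-1.36) and Mad2l1 (-1.33) at least 2-fold lower, against 11.1% and 12.7% of all genes. Top2a stood at 3.95 in LSK cells and 2.83 in CD45-negative cells, a difference of 1.13, which was 0.06 at its other probe and -0.57 on the spike-in scale. Cdc25b stood at 4.002 in LSK cells and 5.52 in CD45-negative cells, and its other probes gave differences of -2.29 and -0.50. The probes of 6 genes, Cdc25b, Cdca5, Ckap2, Ect2, Mki67 and Top2a, lay more than 1 apart in this difference, and those of 10 genes had opposite signs. On the spike-in scale all 36 genes were lower in LSK cells, with a median of -2.01, against -1.69 over all genes.

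The difference between days was more negative in CD45-negative cells than in LSK cells for all 36 genes on the percentile scale, against 44.0% of all genes, and for 1 gene on the spike-in scale. The CD45-negative difference minus the LSK difference had a median of -1.44 over the 36 genes, against 0.18 over 14101 genes; on the spike-in scale these medians were 2.004 and 3.62. It ran from -3.85 (Anln) to -0.25 (Bub3). In 24 genes the LSK difference was above 0 and the CD45-negative difference below 0, against 20.2% of all genes, and in 12 both were below 0, against 22.6%. Both differences passed 0.395 in 6 of the 36 genes, against 3.68% of all genes. Among genes with these signs, that is 6 of 24, against 519 of 2854. The margin was taken from replicate spots of an array and not from separate samples. The signs of the CD45-negative differences turn on the spike-in scale for all of these genes except Anln.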

How the data were processed

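Total RNA (500 ng) of each sample was labelled with Cy3, per the labels' protocols. The submitters' processing notes name Agilent Feature Extraction 10.5.1.1 as the tool that read the 1-colour scans. The deposited spot signals are fluorescence intensity values, with background subtracted in the processed signal per the file headers. The other columns used from the deposited files are yes-or-no flags for background, saturation and outlier spots. Values in the authors' series table are log2 signals with each array's 75th percentile near 0, as the values show, and served as an alternative.

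Control and outlier spots were removed. The log2 processed signals of a probe's spots were averaged, and the 75th percentile over the array's 61307 probes was subtracted. A difference was used only if both arrays called the probe well above background. A gene was read from its probe with the highest mean over 4 arrays; 20679 noncoding probes were kept apart. RefSeq accessions gave current names to 28909 of 40628 gene probes (71.2%). All 36 genes were named, and from every other list at most 3 genes per comparison, those with the largest absolute difference; markers not above background were added after their values were seen. Summed levels are sums of linear values relative to the percentile over genes of a list. The members and lists were chosen with earlier results of these data known. Of the red cell list, 13 of 15 genes were found on the array; Hbb-b1 and Ahsp were not matched.

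Alternatives were normexp background correction (limma 3.58.1, R 4.3.3, offset 50), quantile normalization, a median shift, a percentile over detected probes, 5 spike-in probes, no detection filter, a mean over probes, a 1.5-fold threshold and the series table. The processing was tested on simulated data. Python 3.11.15 with pandas 2.3.3, numpy 2.4.6 and matplotlib 3.10.9 was used.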

Additional observations from a re-analysis of the deposited data

Results flagged for a closer look

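The median day difference of the mitosis genes lay above 0 in LSK cells and below 0 in CD45-negative cells on the percentile scale, though 12 of the 36 genes were below 0 in both and most LSK differences were small. The CD45-negative difference minus the LSK difference had a median of -1.438 over the 36 genes, and 2.004 on the spike-in scale. In 6 of the 36 genes the LSK difference was above and the CD45-negative difference below 0, each by more than 0.395. That margin was set from the spread between replicate spots of an array, which leaves out any spread between mice or samples. Of all genes 3.68% met the same rule, which is 519 of the 2854 genes with these signs. The CD45-negative difference minus the LSK difference was -3.85 for Anln, -2.736 for Racgap1, -2.218 for Nusap1, -2.175 for Cdca8, -1.645 for Melk and -1.205 for Ttk. With 1 array per group these differences between populations were not tested. The second Racgap1 probe had a negative difference in both populations, and the second Anln probe an LSK difference of 0.08, inside that margin. On the spike-in scale the CD45-negative difference of Anln stays below 0 and those of the other 5 genes are above 0.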

How the results depend on the processing

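No paired analysis was possible because each group has 1 array. For the same reason no array could be left out, and all 4 arrays lie on 1 slide with 1 scan, so neither could be used as a block. Without a detection filter and with the deposited series table, the median and the 2-fold counts of the 36 genes kept their direction and size in all 4 comparisons, within 1 spot SD for medians and 1.5 times for counts. Neither alternative could show a change. All 36 genes passed the filter on every array, and the series table holds nearly the same percentile-scaled signals. All 36 genes were detected on every array, but their sizes still depended on the background correction. The median day difference in CD45-negative cells was -1.46 on the main scale and -1.07 under normexp. Ttk had the lowest levels of the set, from -3.58 in LSK cells to -2.16 in CD45-negative cells, both at day 0. The lowest detected levels on those arrays were -5.38 and -3.75. Causes of the changes below were not tested, except that the spike-in scale adds 1 constant to every difference of a comparison by its construction.

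The all-gene median moved by over 0.1 under the median shift for LSK minus CD45-negative cells (to -0.11 at day 0 and -0.16 at day 10) and under the spike-in scale (to -0.20 for LSK day 10 minus day 0, 3.44 for CD45-negative day 10 minus day 0, and 1.83 at day 0 and -1.69 at day 10 for LSK minus CD45-negative cells).

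For LSK day 10 minus day 0, the median was 0.002 on the spike-in scale, and the count of genes at least 2-fold higher was 0 under normexp, the spike-in scale and the mean of probes, and 2 at 1.5-fold. For CD45-negative day 10 minus day 0, the median was -1.07 under normexp and -1.36 under quantile normalization, and 1.79 on the spike-in scale, where 32 genes were at least 2-fold higher and 0 lower. The count of lower genes was 19 under normexp. For LSK minus CD45-negative cells at day 0, the median was -1.575 under normexp, -1.76 under quantile normalization, -2.09 under the median shift, -1.80 with the percentile of detected probes and -0.15 on the spike-in scale, which left 2 genes at least 2-fold higher and 6 lower. At day 10 it was -0.48 under the median shift, -2.01 on the spike-in scale and -0.19 with the mean of probes. There the count of higher genes was 0 under normexp, the median shift, the spike-in scale and the mean of probes, and 2 at 1.5-fold, and the count of lower genes was 34 on the spike-in scale and 10 at 1.5-fold.

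Among single genes at least 2-fold apart on the percentile scale, a sign turned only on the spike-in scale. The spike-in log2 values of those genes for CD45-negative day 10 minus day 0 were Mki67 1.002, Top2a 1.57, Plk1 1.751, Aurka 1.88, Aurkb 2.157, Bub1 2.249, Birc5 1.494, Cenpe 1.738, Cenpf 1.286, Ube2c 0.823, Tpx2 1.286, Nusap1 1.491, Cdca2 2.177, Cdca3 1.498, Cdca8 1.614, Prc1 1.023, Nek2 1.942, Cdc25b 2.15, Cdc25c 1.043, Racgap1 1.665, Ect2 1.836, Espl1 2.231, Incenp 2.004, Ckap2 0.641, Spag5 1.579, Melk 2.069 and Hmmr 0.297. For LSK minus CD45-negative cells at day 0 they were Plk1 0.462, Aurka 0.405, Bub1 0.056, Bub1b 0.295, Cdc20 0.697, Ttk 0.332, Nek2 0.077, Foxm1 0.689, Cdc25c 0.459, Incenp 0.441 and Melk 0.144. At day 10 that of Top2a was -0.566.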
